A study of Rattus norvegicus with 8 samples.

Results

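S1pr1 and 9 other genes of the liver sinusoidal endothelium (Kdr, Flt1, Tek, Pecam1, Lyve1, Stab1, Stab2, Dnase1l3 and Oit3) were followed in perfused rat liver. The set was assembled with the results of the hypoosmotic against normoosmotic comparison known: S1pr1 had the 12th largest positive difference of all genes, and the others are known markers of these cells. Of the 10 genes, 8 were measured by a probe set with a single gene symbol, out of 14506 genes in all, and each of the 8 had only 1 such probe set. Stab1 and Stab2, which are scavenger receptors, were not analysed here.

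Affymetrix whole-transcript arrays were hybridised with RNA from homogenised liver of male Wistar rats aged 6 to 10 weeks. Livers were perfused with Krebs-Henseleit buffer, a physiological salt solution, which was normoosmotic (305 mosm/L) on 4 arrays and hypoosmotic (225 mosm/L) on the other 4. Every liver was sampled at 180 min, and neither group carried a genetic change or a drug per the labels. Whether each array stands for its own rat is not stated in the labels. The p-values therefore reflect only how these 4 and 4 samples scatter, and that scatter may be technical.

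Sinusoidal endothelial cells line the liver capillaries. They are perforated by open pores without a diaphragm, lack a full basement membrane and clear hyaluronan, immune complexes and other waste from blood by endocytosis. Sphingosine 1-phosphate is a lipid carried in plasma by albumin and apolipoprotein M. Its receptor S1pr1 couples to Gi proteins and keeps endothelial junctions closed. VEGF from hepatocytes, acting on Kdr and Flt1, maintains the sinusoidal phenotype.

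Values are log2 expression, and a difference is hypoosmotic minus normoosmotic between group means on that scale, with its limma standard error (SE). Array medians ranged from 3.92 to 4.05, and precision is limited by having only 4 arrays in each group. Over all genes, 1024 (7.06%) passed at a Benjamini-Hochberg adjusted p of 0.05 in limma, 355 higher and 669 lower, against 234 higher and 732 lower after each array was centred on its median. A further quantile normalization gave 422 higher and 639 lower. With single arrays omitted the count ran from 464, without normoosmotic replicate 3, to 1050, without hypoosmotic replicate 4, and was 626, 673, 562 and 544 without normoosmotic replicate 1, 2 or 4 or hypoosmotic replicate 2. Hypoosmotic replicate 3 stood apart on the second principal component, at 28.4 against -15.3 to 6.53 for the other 7 arrays. Hepatocyte markers were strong, with Alb at 13.11 ± 0.04 (SD, n = 4) and 13.05 ± 0.07 in normoosmotic and hypoosmotic livers. All 8 endothelial genes lay above 3.07, a level that 95% of the 1105 odorant receptor genes stayed under, taken as background.

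S1pr1 was 6.58, 6.84, 5.28 and 6.58 in normoosmotic replicates 1 to 4, and 7.86, 7.64, 7.98 and 7.34 in the hypoosmotic ones. The groups did not overlap, and normoosmotic replicate 3 was far below the other 7 arrays. The means were 6.32 ± 0.70 and 7.71 ± 0.28 (SD, n = 4), a difference of 1.39 ± 0.29 (SE), or 2.61-fold. S1pr1 was the gene that brought this set together, so its difference is a description and carries no test. Without normoosmotic replicate 3 the difference was 1.04, the lowest when each array was omitted in turn; the highest was 1.56, without normoosmotic replicate 2.

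Kdr, the main signalling receptor for VEGF in endothelium, was 6.50, 6.94, 7.05 and 6.99 in normoosmotic and 7.51, 7.45, 7.86 and 7.29 in hypoosmotic livers. Every hypoosmotic value was above every normoosmotic one, with a difference of 0.66 ± 0.15 (SE), or 1.58-fold. Flt1, a VEGF receptor that binds the ligand tightly and signals weakly, was 5.66, 5.72, 5.86 and 6.01 against 6.05, 5.85, 6.02 and 5.92. The groups overlapped, and the difference was 0.15 ± 0.11 (SE). Tek, the angiopoietin receptor Tie2, was 4.85, 5.45, 4.96 and 4.74 against 5.04, 5.43, 5.74 and 5.11. Here normoosmotic replicate 2 was above every hypoosmotic array but replicate 3, so the groups overlapped, and the difference was 0.33 ± 0.19 (SE).

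Pecam1, an adhesion molecule of endothelial junctions, was 6.11, 6.11, 5.88 and 6.03 in normoosmotic and 6.49, 6.46, 6.38 and 6.19 in hypoosmotic livers. The groups came close to each other without overlapping, and the difference was 0.35 ± 0.11 (SE). Lyve1, a hyaluronan receptor shared by sinusoidal and lymphatic endothelium, was 7.88, 8.12, 7.90 and 8.06 against 8.16, 8.69, 8.71 and 8.04. Hypoosmotic replicates 2 and 3 were high, replicate 1 was just above the highest normoosmotic value and replicate 4 lay inside the normoosmotic range. The difference was 0.41 ± 0.16 (SE).

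Dnase1l3, a secreted nuclease that digests DNA in chromatin and microparticles, was 6.49, 6.88, 6.70 and 6.74 in normoosmotic and 7.10, 7.83, 8.01 and 7.16 in hypoosmotic livers. The groups did not overlap, and hypoosmotic replicates 2 and 3 were again the upper ones. Its difference was 0.82 ± 0.20 (SE), or 1.77-fold. Oit3, a zona pellucida domain protein of liver, went the other way: 7.48, 7.73, 7.42 and 7.53 against 6.93, 7.10, 7.23 and 7.06. All 4 hypoosmotic arrays were below all 4 normoosmotic ones, and the difference was -0.46 ± 0.11 (SE), or 1.38-fold lower.

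**Figure D1:**
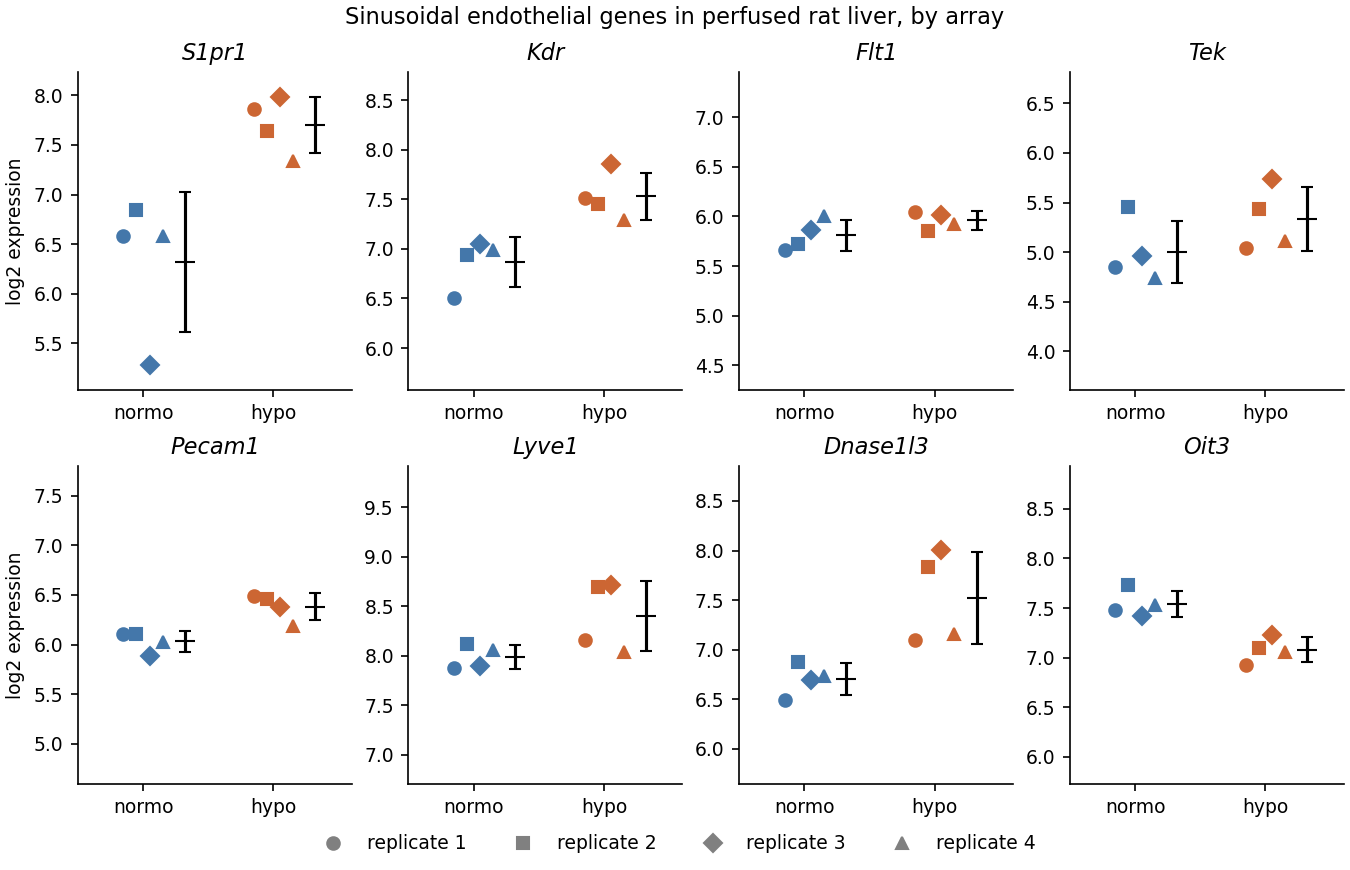
Log2 expression of the 8 measured endothelial genes in each array, by group (normoosmotic blue, hypoosmotic orange; all vertical axes span the same log2 distance); marker shapes give the replicate number and the bars the mean ± SD (n = 4). S1pr1, Kdr, Pecam1 and Dnase1l3 are higher in every hypoosmotic array, Oit3 is lower in every one, and the groups overlap for Flt1, Tek and Lyve1.

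So 7 of the 8 genes had a positive difference and 1 a negative one, with a median of 0.38, against a median of 0.02 over all genes. The groups did not overlap in 5 of the 8 (13.5% of all genes): 4 lay above (5.32% of all genes) and 1 below (8.2%). In the fit over all genes 4 of the 8 passed (7.06% of all genes): S1pr1, Kdr and Dnase1l3 higher (2.45% of all genes) and Oit3 lower (4.61%). Nothing is read from these counts, since the genes were chosen with this comparison in view. Likewise as a description, the number of the 8 genes that passed was 1 without normoosmotic replicate 1, 2 or 4 or hypoosmotic replicate 2. It was 2 without normoosmotic replicate 3 or hypoosmotic replicate 1 or 3. Without hypoosmotic replicate 4 it was 4, all higher, with Pecam1 in place of Oit3 (adjusted p = 0.0463 and 0.0523, limma). With single arrays omitted, Kdr and Dnase1l3 each passed in 2 fits and Oit3 in 1. In whole liver RNA, fewer or more endothelial cells and less or more RNA per cell cannot be told apart.

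S1pr1 was also set against the 7 other genes on the same array. S1pr1 minus the mean of the others was 0.16, 0.13, -1.26 and -0.01 in normoosmotic replicates 1 to 4 and 1.11, 0.67, 0.84 and 0.66 in the hypoosmotic ones. The ratio was therefore higher in every hypoosmotic array, with means of -0.24 ± 0.68 and 0.82 ± 0.21 (SD, n = 4) and a difference of 1.06. Without normoosmotic replicate 3 the difference was 0.72. This quantity rests on the same values as the choice of S1pr1 and is a description.

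Within a group, the endothelial genes tended to be high or low on the same arrays. Hypoosmotic replicate 3 held the highest hypoosmotic value for 6 of the 8 genes and lay on average 0.25 above its group mean, while hypoosmotic replicate 4 was below the group mean for all 8 and lay 0.22 under it on average. Normoosmotic replicate 2 held the highest or joint highest normoosmotic value for 6 of the 8, on average 0.19 above its group mean. These counts were not taken over all genes, and the pattern was not particular to endothelium. Hypoosmotic replicate 4 lay under its group mean on average in every list read here (-0.14 for blood cell markers). Hypoosmotic replicate 3 had the highest array median (4.05). It held the highest hypoosmotic value for 10 of 14 stellate cell markers, but for 0 of 14 Kupffer cell markers. Markers of other cells moved on these arrays as well. The 14 measured stellate cell markers averaged 0.25 above their group mean in hypoosmotic replicate 3 and 0.30 below it in hypoosmotic replicate 4. Of the 15 hepatocyte markers 7 were above their group mean in hypoosmotic replicate 3; their average of 0.25 came mostly from G6pc1, the glucose-releasing phosphatase, at 9.59 there and 5.50 to 6.20 on the other hypoosmotic arrays. The 14 Kupffer cell markers averaged 0.36 above it in hypoosmotic replicate 2, 0.27 below it in hypoosmotic replicate 4, and 0.29 below it in normoosmotic replicate 3, the array with the low S1pr1 value, where all 14 were under their group mean. The part of cell composition in the endothelial values was not tested.

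**Figure D2:**
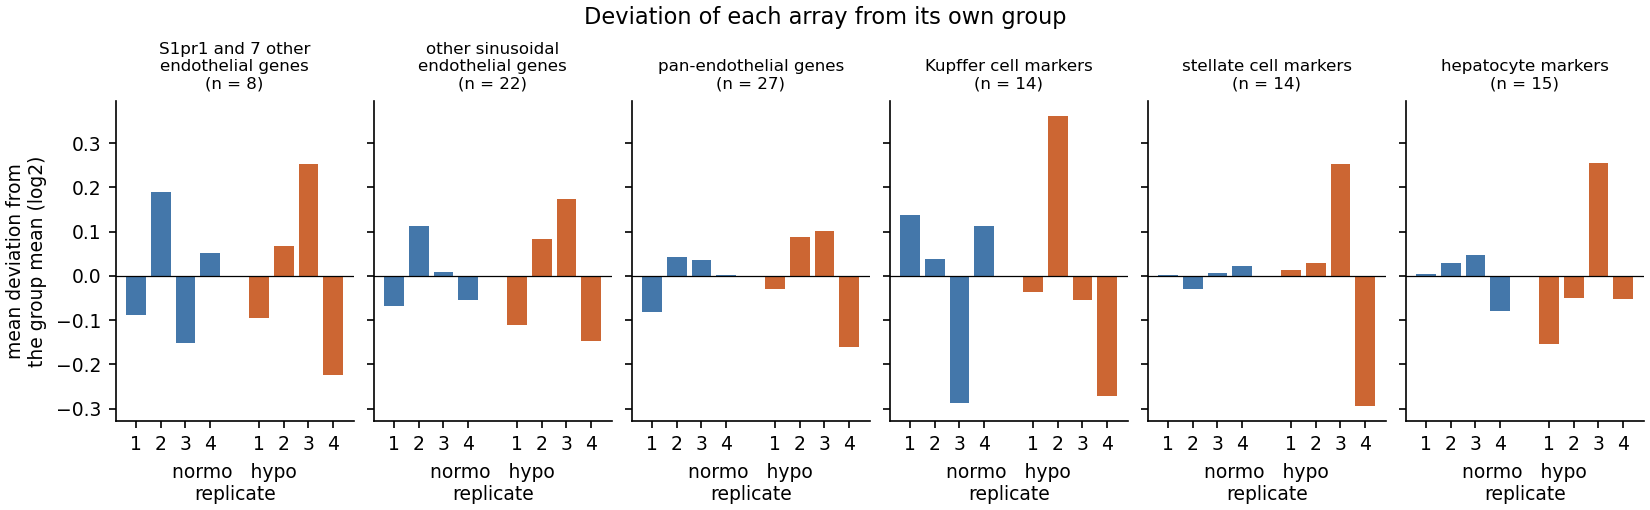
Mean deviation of each array from its own group mean (log2), averaged over the genes of 6 lists, with normoosmotic arrays in blue and hypoosmotic ones in orange. S1pr1 and the 7 other endothelial genes are highest in hypoosmotic replicate 3 (0.25) and lowest in hypoosmotic replicate 4 (-0.22), and the stellate cell markers show the same order at the extremes (0.25 and -0.30).

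The members of 6 further lists, drawn up from general knowledge of endothelium, were read from the same fit. Of 22 measured genes of other sinusoidal functions, 1 rose and 1 fell (2.45% and 4.61% of all genes), with a median difference of 0.08. After median centring 0 rose and 2 fell, and after a further quantile normalization 1 rose and 2 fell. Gata4, a transcription factor required for the sinusoidal identity of these cells and expressed in stellate cells too, was 4.73, 5.22, 4.79 and 4.99 in normoosmotic and 5.47, 5.97, 5.70 and 5.17 in hypoosmotic livers. Its adjusted p was 0.0471 (limma), with hypoosmotic replicate 4 inside the normoosmotic range. Rspo3, which enhances Wnt signalling from central vein endothelium, fell from 5.10 ± 0.18 to 4.66 ± 0.11 (SD, n = 4; limma adjusted p = 0.0498). With single arrays omitted, Gata4 passed only without normoosmotic replicate 2 or hypoosmotic replicate 4 and Rspo3 only without hypoosmotic replicate 4 (adjusted p up to 0.129 and 0.118). Gata4 did not pass after median centring (0.0713) nor Rspo3 with an intensity trend (0.0620). The number of listed genes that passed was 0 without normoosmotic replicate 1, 3 or 4 or hypoosmotic replicate 1 or 2, 1 without normoosmotic replicate 2, and 4 without hypoosmotic replicate 3.

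The Fc receptor gene Fcgr2b, used by these cells to clear immune complexes and also found on macrophages, had a difference of 0.31 ± 0.17 (SE) and an adjusted p of 0.349 (limma). Its values ran from 7.77 to 8.18 and from 7.97 to 8.82, with hypoosmotic replicate 3 on top. In this list hypoosmotic replicate 3 held the highest hypoosmotic value for 10 of the 22 genes. Clec4g was not analysed here.

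Among 27 measured pan-endothelial genes 2 rose and 1 fell (2.45% and 4.61% of all genes), with a median of 0.12. After median centring 0 rose and 2 fell, and after a further quantile normalization 2 rose and 1 fell. Before these steps those that rose were Erg and Fli1, transcription factors of the ETS family that switch on endothelial genes. Erg went from 5.08 ± 0.22 to 5.62 ± 0.22 (adjusted p = 0.0490, limma) and Fli1 from 5.35 ± 0.10 to 5.86 ± 0.25 (SD, n = 4; adjusted p = 0.0382). Erg was 4.81, 5.25, 4.99 and 5.28 against 5.62, 5.83, 5.71 and 5.31, so that the groups were barely apart. The ETS factors of the list did not move one way: Ets1 was 7.60, 8.01, 8.02 and 7.54 against 7.22, 7.17, 7.35 and 7.45, with every hypoosmotic array lower (-0.50 ± 0.14 SE), and Ets2 had a difference of -0.28 ± 0.20. Neither passed (adjusted p = 0.0528 and 0.505, limma), but Ets1 passed after median centring (0.0490), with array weights (0.0340), without the dimmest genes (0.0444) and without normoosmotic replicate 4 (0.0487), and Ets2 without normoosmotic replicate 1 (0.0450). Both were named after their values were seen. Clec14a, a C-type lectin of endothelial junctions, fell from 6.34, 6.77, 6.35 and 6.46 to 5.82, 5.92, 5.70 and 6.04. Its groups were well apart, with a difference of -0.61 ± 0.13 (SE; adjusted p = 0.0165, limma), and it passed whichever array was omitted. Erg then passed only without hypoosmotic replicate 4 and Fli1 only without hypoosmotic replicate 3 (adjusted p up to 0.131 for Erg), after median centring neither did (0.0762 and 0.0738), and Erg did not with an intensity trend (0.0521). The number that passed in the list was 1 without normoosmotic replicate 2 or 3 or hypoosmotic replicate 1 or 2.

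Several genes that define endothelium did not pass. Cdh5, the cadherin of endothelial junctions, was 6.50, 6.72, 6.80 and 6.59 against 6.65, 7.04, 6.75 and 6.70, a difference of 0.13 ± 0.12 (SE; adjusted p = 0.617, limma). The arrays of both groups were interleaved. The orphan receptor gene Tie1 had a difference of 0.06 ± 0.14 and Nos3, endothelial nitric oxide synthase, one of 0.03 ± 0.13 (adjusted p = 0.880 and 0.945). Both signs turned in some of the alternatives. With SEs of this size, small changes in these genes were not detectable.

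Of 18 measured genes listed for large vessels, continuous capillaries and lymphatics, 0 passed (7.06% of all genes), with a median of -0.02. In limma 5 of them had an unadjusted p under 0.05, as had 2997 of all 14506 genes. Without normoosmotic replicate 4 or hypoosmotic replicate 4, 1 gene passed. Cd34, a marker of capillary endothelium, was 2.49, 2.68, 2.80 and 2.57 in normoosmotic and 3.22, 3.05, 3.64 and 2.88 in hypoosmotic livers. These values did not overlap but lay around the background level of 3.07, and the adjusted p was 0.0538 (limma). It passed at 0.0293 without hypoosmotic replicate 4, at 0.0481 with an intensity trend and at 0.0388 with array weights. Vwf was not analysed here.

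**Figure D3:**
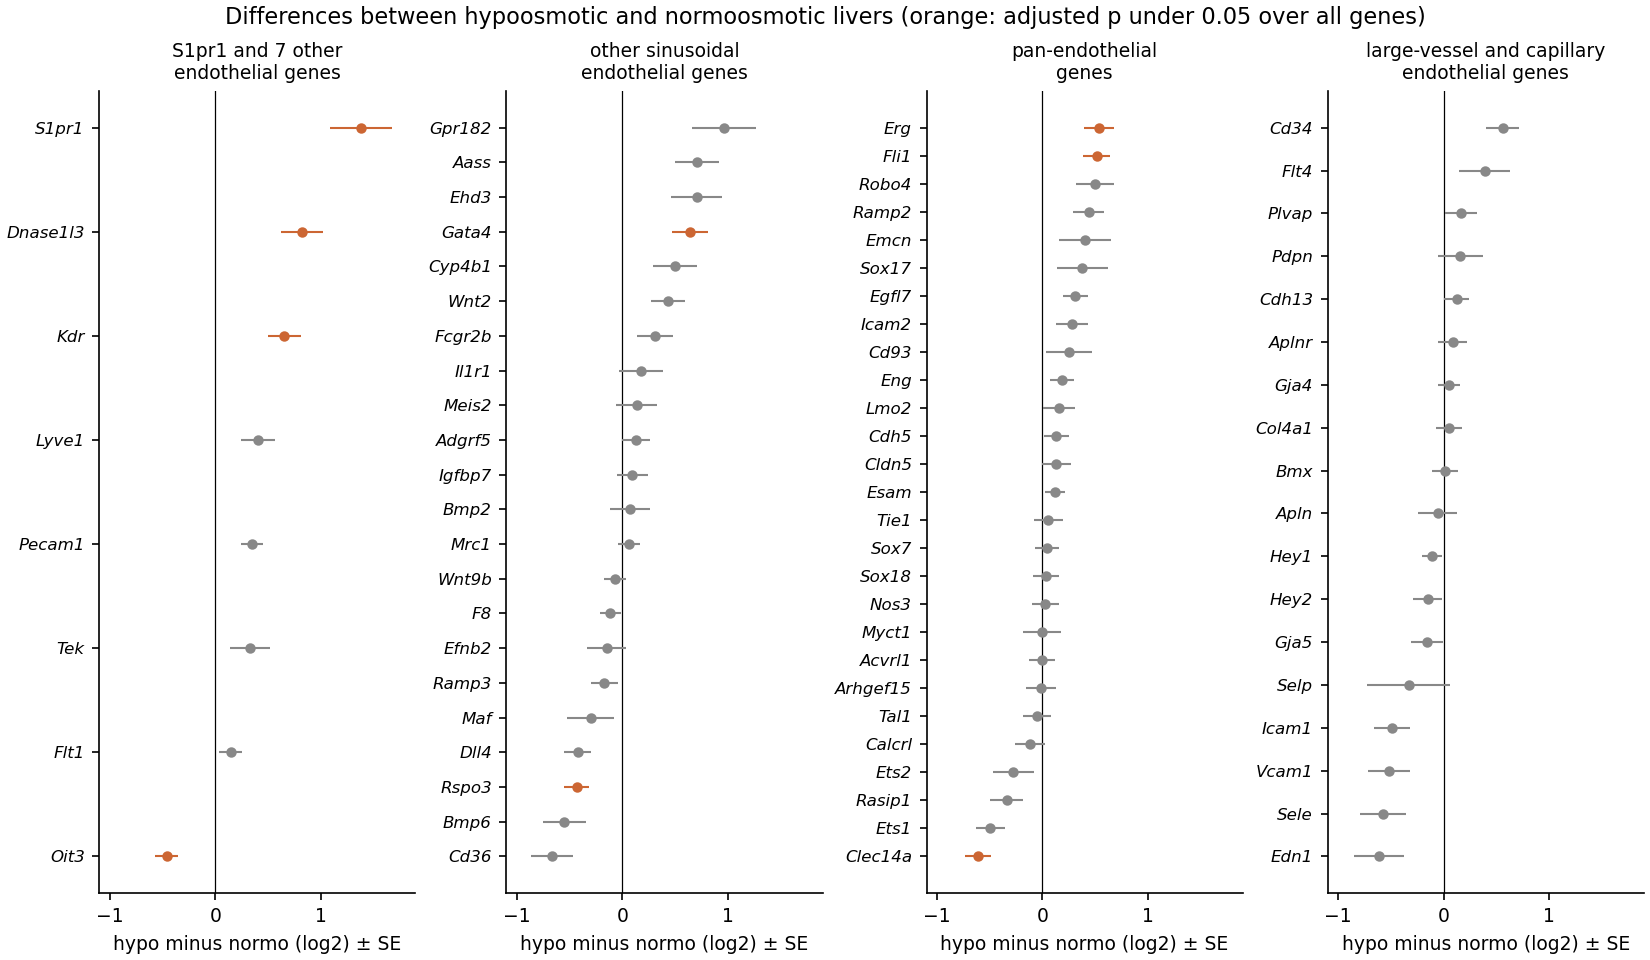
Hypoosmotic minus normoosmotic difference (log2) with its limma SE for each measured gene of 4 endothelial lists, n = 4 arrays per group; orange marks an adjusted p under 0.05 over all 14506 genes. S1pr1 at 1.39 has the largest difference of the genes drawn, and the list medians are 0.38, 0.08, 0.12 and -0.02 from left to right.

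The stretches upstream of 4 genes of the set are shown because these genes differed most clearly between the groups, 3 upward and 1 downward. The ETS core was marked because ETS factors are known regulators of endothelial genes; those on the list had differences of both signs. Each is the 250 bases before the RefSeq start on the GRCr8 rat assembly, 5′ to 3′ on the gene's strand, with the ETS core GGAA or its reverse TTCC in capitals. The motifs were chosen after the values were seen. The stretches lie at chr2:206314071-206314320 (minus strand) for S1pr1, chr14:32571813-32572062 (plus) for Kdr, chr15:19352302-19352551 (plus) for Dnase1l3 and chr20:27953684-27953933 (minus) for Oit3.
S1pr1: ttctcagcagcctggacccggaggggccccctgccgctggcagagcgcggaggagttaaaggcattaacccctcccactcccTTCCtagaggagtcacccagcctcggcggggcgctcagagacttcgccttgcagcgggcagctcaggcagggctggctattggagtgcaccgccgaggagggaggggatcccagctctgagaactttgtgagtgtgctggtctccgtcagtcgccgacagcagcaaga
Kdr: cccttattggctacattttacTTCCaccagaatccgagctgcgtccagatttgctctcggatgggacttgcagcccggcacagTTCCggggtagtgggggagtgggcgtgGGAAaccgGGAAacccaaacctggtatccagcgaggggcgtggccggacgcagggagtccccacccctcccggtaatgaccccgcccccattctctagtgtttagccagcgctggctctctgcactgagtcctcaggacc
Dnase1l3: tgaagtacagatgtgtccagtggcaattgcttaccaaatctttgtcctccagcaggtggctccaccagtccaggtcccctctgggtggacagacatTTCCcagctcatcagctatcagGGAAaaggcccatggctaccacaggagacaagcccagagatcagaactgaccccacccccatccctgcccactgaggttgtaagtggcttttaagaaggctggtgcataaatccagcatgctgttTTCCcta
Oit3: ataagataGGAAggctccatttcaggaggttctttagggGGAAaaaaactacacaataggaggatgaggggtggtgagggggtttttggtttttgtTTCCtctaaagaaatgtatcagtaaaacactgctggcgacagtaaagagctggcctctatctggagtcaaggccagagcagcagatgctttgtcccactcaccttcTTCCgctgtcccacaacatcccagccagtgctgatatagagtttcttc
S1pr1 held 1 match to the ETS core, Kdr 4, Dnase1l3 3 and Oit3 4. Such matches are common: 93.2% of 33469 upstream stretches of the same length held at least 1, with a median of 3. GATAA or its reverse TTATC, the core bound by GATA factors such as Gata4, was in none of the 4 stretches and in 23.5% of all. CACCC or its reverse GGGTG, scanned as a KLF motif, had 1 match in S1pr1, Kdr and Oit3 and 2 in Dnase1l3. It was in 49.2% of all stretches. The extended ETS form AGGAAG or CTTCCT was in S1pr1 and Oit3, not in Kdr or Dnase1l3, and in 29.5% of all. The G and C content was 64.8% for S1pr1, 61.6% for Kdr, 52.8% for Dnase1l3 and 46.8% for Oit3, against a median of 51.2%. Of the 10 genes 8 were found in the RefSeq table, Pecam1 and Tek being the exceptions. These matches describe letters, and binding was not measured.

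Sphingosine 1-phosphate is made from ceramide: ceramidases release sphingosine, and sphingosine kinases phosphorylate it. Of 25 other measured genes of this pathway 1 rose and 0 fell (2.45% and 4.61% of all genes), with a median of 0.02. The rise was in Acer2, the Golgi alkaline ceramidase, at 4.59, 4.54, 4.30 and 4.25 in normoosmotic and 5.10, 5.64, 5.72 and 5.16 in hypoosmotic livers. The groups were clearly apart, with a difference of 0.99 ± 0.16 (SE), or 1.98-fold (adjusted p = 0.00715, limma). Acer2 passed whichever array was omitted. Hypoosmotic replicates 2 and 3 were the upper arrays, as for Dnase1l3 and Lyve1.

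The kinase genes did not pass, with differences of -0.13 ± 0.12 for Sphk1 and 0.05 ± 0.15 for Sphk2 (SE; adjusted p = 0.624 and 0.910, limma). For Sphk2 the sign turned with array weights. Sgpp1, which dephosphorylates sphingosine 1-phosphate in the endoplasmic reticulum, was 6.74, 6.56, 6.49 and 6.30 against 6.79, 7.20, 7.04 and 6.78. Its groups just failed to overlap and it did not pass (0.43 ± 0.13, adjusted p = 0.0791, limma); it was named after its value was seen. Plpp3, a cell-surface lipid phosphatase of endothelium, had a difference of 0.37 ± 0.17 (adjusted p = 0.258), with hypoosmotic replicate 3 at 8.99 and the other 7 arrays between 7.91 and 8.29. The carrier gene Apom, expressed by hepatocytes, was 9.04 ± 0.09 and 9.09 ± 0.17 (SD, n = 4; adjusted p = 0.858, limma).

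Among the other receptors of the lipid, S1pr2 was 7.51, 7.67, 6.63 and 7.30 in normoosmotic and 8.23, 8.18, 7.05 and 8.13 in hypoosmotic livers. S1pr2 signals mainly through G12/13 and Gq proteins and is known in hepatocytes as a receptor for conjugated bile acids. Replicate 3 was the lowest array of both groups, so the groups overlapped, and the gene did not pass (0.62 ± 0.28, adjusted p = 0.240, limma). Without hypoosmotic replicate 3 the difference was 0.90 with an adjusted p of 0.0341 (limma), and 2 genes of the list passed. S1pr3 and the transporter gene Spns2 were not analysed here.

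**Figure D4:**
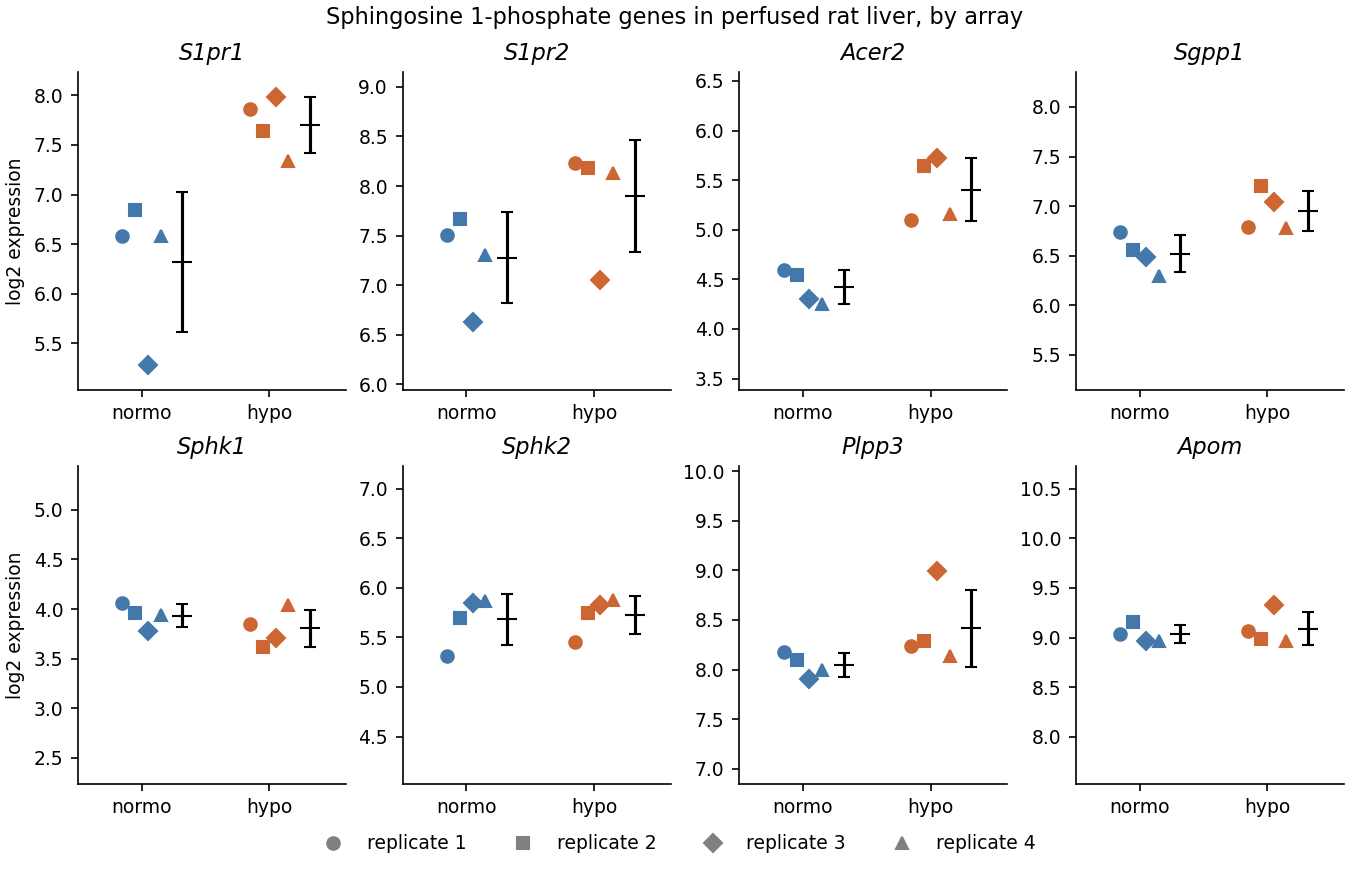
Log2 expression of S1pr1 and 7 other sphingosine 1-phosphate genes in each array, by group (normoosmotic blue, hypoosmotic orange; all vertical axes span the same log2 distance); marker shapes give the replicate number and the bars the mean ± SD (n = 4). Acer2, like S1pr1, is higher in every hypoosmotic array, replicate 3 is the lowest of both groups for S1pr2, and Sphk1, Sphk2 and Apom overlap.

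Of 21 measured VEGF and angiopoietin pathway genes 0 rose and 1 fell (2.45% and 4.61% of all genes), with a median of -0.07. It was Vegfc, the ligand of the lymphatic receptor Flt4, which also binds Kdr. Vegfc was 6.06, 6.12, 6.09 and 6.22 against 5.51, 5.68, 5.61 and 5.73, with tight groups that did not overlap. Its difference was -0.49 ± 0.10 (SE; adjusted p = 0.0137, limma), and it passed whichever array was omitted. Vegfa, the ligand of Kdr and Flt1, had a difference of -0.07 ± 0.18 and Angpt2, the context-dependent antagonist of Tek, one of -0.09 ± 0.16 (adjusted p = 0.893 and 0.845); both signs turned when some single arrays were omitted.

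Of 19 measured genes that respond to shear stress or serve endothelial responses to flow, 1 rose and 2 fell (2.45% and 4.61% of all genes). The median difference over the list was -0.07. Cav1, the coat protein of caveolae, which binds and inhibits Nos3, rose from 5.15, 5.49, 4.94 and 5.18 to 5.82, 6.41, 6.25 and 5.46 (0.80 ± 0.20 SE, adjusted p = 0.0364, limma). Hypoosmotic replicate 4 lay just inside the normoosmotic range, and with single arrays omitted Cav1 passed only without normoosmotic replicate 2 or hypoosmotic replicate 4 (adjusted p up to 0.106). Mapk7, the kinase ERK5 through which flow induces Klf2, fell by 0.74 ± 0.14 (SE; adjusted p = 0.0122), and Plat, the plasminogen activator that endothelium releases, by 1.34 ± 0.24 (adjusted p = 0.00973, limma). Both passed whichever array was omitted.

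Klf2, a transcription factor induced by laminar flow that is known to raise S1pr1, was 4.05, 3.63, 3.48 and 3.85 in normoosmotic and 3.75, 3.74, 5.29 and 3.78 in hypoosmotic livers. It was high on hypoosmotic replicate 3 only, and its difference of 0.39 ± 0.31 (SE) did not pass (adjusted p = 0.567, limma). Perfusion flow per liver was not given in the sources used here.

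Markers of the other cells of liver are given beside these results. Of 15 hepatocyte markers 0 passed, of 14 Kupffer cell markers 1 rose, of 14 stellate cell markers 1 rose, of 9 smooth muscle and biliary markers 0 passed, and of 14 blood cell markers 0 passed (limma; 2, 2, 4, 1 and 0 had an unadjusted p under 0.05). Of all genes 7.06% passed, 2.45% higher and 4.61% lower, and 2997 of 14506 had an unadjusted p under 0.05 (limma). The list medians were -0.06, 0.07, 0.13, 0.10 and 0.05. The Kupffer rise was in Lyz2, a lysozyme of macrophages and other myeloid cells, at 0.99 ± 0.15 (SE; adjusted p = 0.00512). The defining Kupffer markers Clec4f (0.47 ± 0.30, adjusted p = 0.445) and Cd68 (0.04 ± 0.11, adjusted p = 0.890) did not pass. The stellate rise was in Colec11, a collectin, at 0.48 ± 0.12 (adjusted p = 0.0407, limma), which did not pass after median centring (0.0575) and with single arrays omitted passed only without hypoosmotic replicate 1 or 4. Without hypoosmotic replicate 2, 2 Kupffer cell markers passed, and without hypoosmotic replicate 4, 1 smooth muscle or biliary marker did. The stellate count was 0 after median centring and without any one of the 4 normoosmotic arrays or hypoosmotic replicate 2 or 3, and 2 without hypoosmotic replicate 1 or 4. Dcn, a matrix proteoglycan named after its values were seen, was 7.09, 7.08, 7.13 and 7.23 against 8.01, 8.01, 7.96 and 5.82. Its hypoosmotic replicate 4 was the lowest of all 8 arrays and the other 3 were the highest, so it did not pass (0.32 ± 0.41 SE, adjusted p = 0.753, limma) but did without that array (0.86 ± 0.10, adjusted p = 0.00437). Its part in the endothelial values was not tested. Lrat, which esterifies retinol in stellate cells, had a difference of 0.25 ± 0.23 and Reln one of -0.57 ± 0.18 (SE; adjusted p = 0.623 and 0.0850, limma), and Reln passed at 0.0462 without hypoosmotic replicate 1.

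The mean log2 level of the 8 endothelial genes ranged from 6.38 to 6.72 over the normoosmotic arrays and from 6.76 to 7.24 over the hypoosmotic ones. For stellate cell markers the ranges were 5.63 to 5.69 and 5.50 to 6.05, for Kupffer cell markers 5.87 to 6.30 and 6.00 to 6.63, for hepatocyte markers 11.09 to 11.22 and 11.05 to 11.46, for smooth muscle and biliary markers 4.78 to 4.95 and 4.94 to 5.12, and for blood cell markers 3.47 to 3.64 and 3.43 to 3.69. Of these sets only the one with S1pr1 did not overlap between the groups, and it was chosen on these values. Without S1pr1 it overlapped too. The mean of the 7 other genes was slightly lower in hypoosmotic replicate 4 than in normoosmotic replicate 2. Other endothelial lists overlapped. Their ranges were 6.11 to 6.29 and 6.12 to 6.45 for other sinusoidal genes and 5.11 to 5.23 and 5.13 to 5.39 for pan-endothelial genes. For large-vessel genes they were 4.91 to 5.01 and 4.71 to 4.99. Ptprc (leukocytes) had a difference of 0.10 ± 0.16, Pf4 (platelets) 0.05 ± 0.11, Acta2 and Myh11 (smooth muscle) 0.27 ± 0.13 and 0.08 ± 0.14, and Krt19 and Epcam (bile duct) -0.05 ± 0.12 and 0.10 ± 0.16 (SE). Cyp2e1, of hepatocytes, had -0.22 ± 0.10, and the haemoglobin gene Hbb, a sign of blood left in the tissue, ran from 5.64 to 8.75 over the normoosmotic arrays and from 6.98 to 7.45 over the hypoosmotic ones. None of these 8 genes passed.

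Genes were finally ranked by how closely their pattern followed that of S1pr1 over the 8 arrays, after each was centred on its own mean. The measure was the mean absolute difference from S1pr1 in log2 units, and its median over all genes was 0.69. The nearest was Sema6d, a semaphorin, at 0.18, followed by Pmp22, a membrane protein of peripheral myelin and other cells (0.25), Clpx, a subunit of a mitochondrial protease (0.26), Sdr9c7, a short-chain dehydrogenase (0.27), and Elf3, an ETS factor of epithelia (0.27). Sema6d was 4.27, 4.43, 3.76 and 4.29 in normoosmotic and 5.52, 5.44, 5.59 and 5.11 in hypoosmotic livers. It thus shared with S1pr1 the low normoosmotic replicate 3 and the lower hypoosmotic replicate 4, and its difference was 1.23 ± 0.16 (SE). Since these 5 genes were picked for a pattern that is itself a difference between the groups, their differences carry no test. Within the endothelial set Dnase1l3 came nearest, at rank 42 of 14505 genes, then Kdr at rank 301 and Lyve1 at rank 555. Pecam1 was at rank 850, Tek at 951, Flt1 at 3168 and Oit3 at 13656. This order was the same as that of their differences between the groups. The ranks therefore restate those differences and carry no test either.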

How the data were processed

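The authors deposited log2 expression values for 27596 probe sets on 8 arrays. The submitters' processing notes name RMA, Affymetrix Expression Console and Transcriptome Analysis Console 4.0 without their roles. RMA forces array distributions to match, which can hide a shift common to most genes. A platform annotation gave 1 symbol to 15310 probe sets, several to 323, and 11963 were left unnamed. Symbols were matched to RefSeq genes, by gene identifier for 15279 probe sets. The brightest probe set stood for a gene, leaving 14506 genes. The genome build behind the probes is not given in the sources used here.

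Groups were read from sample titles. The test was limma 3.58.1 under R 4.3.3: lmFit with group as the only term, then eBayes, two-sided, with Benjamini-Hochberg adjustment over all genes and a threshold of 0.05. It was tested on simulated data with independent noise for each gene and array. Shifts shared by many genes on an array were not simulated, so that check does not cover them. Python 3.11.15, pandas 2.3.3 and matplotlib 3.10.9 made tables and plots. The alternatives tried were a replicate block, limma's trend and robust options, weighting of arrays, median centring, a further quantile normalization, dropping the 30% dimmest genes, averaging probe sets and omitting each array.

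The members and lists were chosen with earlier results of these data known. Tie1, Nos3, Flt4, Dll4, Sele and Edn1 stand on more than 1 list. Named genes were the members, up to 6 passing genes per list, 17 genes given whatever their value (13 measured), defining markers of other cells and the 5 patterns nearest to S1pr1.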

Additional observations from a re-analysis of the deposited data

Results flagged for a closer look

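Several values stood apart from the other 3 of their group, with a gap to the nearest of them, relative to the group's range, above Dixon's limit for 4 samples. Chance alone passes it in about 1 of 20 groups, and 7 of 104 groups passed it here. S1pr1 was 5.28 in normoosmotic replicate 3, with the next array at 6.58, and S1pr1 minus the mean of the 7 other genes was -1.259 on that array, with the next at -0.006. Klf2 was 5.29 in hypoosmotic replicate 3, with the next array at 3.78. On the same array S1pr2 was the lowest of its group at 7.05 (next 8.13), Alb was 12.95 (next 13.08) and Sdr9c7 was the highest at 7.31 (next 6.75). Cyp2e1 was 11.77 in normoosmotic replicate 2, with the next array at 11.94.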

How the results depend on the processing

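The difference of S1pr1, a description, ran from 1.04 to 1.56 over the alternatives. Leaving out 1 array gave 464 to 1050 genes in all, 1 to 4 of the 8 endothelial genes, 0 to 4 of the other sinusoidal genes, 1 to 2 of the pan-endothelial genes, 0 to 1 of the large-vessel genes and 1 to 2 of the sphingosine 1-phosphate genes; fewer samples also lower the power. Samples with the same replicate number were not treated as pairs, since not every same-number correlation of deviations was above 0.1 (0.0068 to 0.257); 6 of 8 samples correlated best with their own number, a hint from the data and not the design. With the replicate block, 1027 genes passed in all, 4 other sinusoidal, 1 pan-endothelial, 1 large-vessel and 3 sphingosine 1-phosphate genes; S1pr2 (adjusted p = 0.0217, limma) and Cd34 (0.0358) passed, and Erg (0.0635), Fli1 (0.0567), Rspo3 (0.0781) and Clpx (0.0531) did not. An intensity trend gave 1 other sinusoidal and 1 large-vessel gene, array weights 4 and 1. Median centring and quantile normalization gave 2 VEGF and angiopoietin genes each, and quantile normalization 2 sphingosine 1-phosphate genes; after it Oit3 did not pass (adjusted p = 0.0506, limma) and Pecam1 did (0.0427). The causes were not tested.

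Signs turned only in genes that did not pass. With single arrays omitted, the differences of these genes ran from -0.0408 to 0.135 for Tie1, -0.0567 to 0.104 for Nos3, -0.264 to 0.0458 for Vegfa, -0.184 to 0.0358 for Angpt2, -0.0758 to 0.14 for Sphk2, -0.025 to 0.0967 for Apom, -0.0317 to 0.0842 for Cd68, -0.0525 to 0.158 for Myh11, -0.102 to 0.0342 for Krt19, -0.0392 to 0.181 for Epcam, -0.0625 to 0.194 for Ptprc, -0.452 to 0.585 for Hbb and -0.0283 to 0.0883 for Pf4. Median centring gave -0.0125 for Nos3 and -0.005 for Hbb, quantile normalization -0.015 for Nos3 and 0.00906 for Alb, and array weights -0.00786 for Sphk2.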
